A study of Mus musculus with 6 samples.

Results

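Matrix metalloproteinases (MMPs) and their tissue inhibitors (TIMPs) were followed in myeloid cells from the spleens of rapamycin-treated mice and of PBS-treated mice. The members were 10 named genes, the proteases Mmp8, Mmp9, Mmp12, Mmp13, Mmp14, Mmp19 and Mmp25 and the inhibitors Timp1, Timp2 and Timp3, out of 19938 genes with a probe set of a single symbol. Each of the 10 had 1 such probe set on the array. They were chosen because Mmp12 was strongly higher with rapamycin, so the differences between the groups are given for them as a description, and no p-value is read from them. The study held 2 groups of 3 mice with 1 array each: B6D2F1/J recipients treated with rapamycin, which inhibits the growth kinase mTOR, at a dose of 1.5 mg/kg on alternate days, and B6D2F1/J recipients treated with PBS on the same schedule. All 6 mice had been lethally irradiated, had received T-cell-depleted B6 marrow, and were sampled on day 10 after the transplantation. B6 spleen cells were given with the graft to some mice or to none, and the labels do not say to which mice, so this cannot be told apart from the groups. Cells were enriched with beads against CD11b alone, a surface integrin that neutrophils, monocytes, macrophages and eosinophils share, and the labels call the product myeloid-derived suppressor cells.

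The arrays carried the markers of that enrichment. The CD11b gene Itgam lay at a log2 value of 12.27 ± 0.04 with rapamycin and 12.39 ± 0.08 with PBS (mean ± SD, n = 3 each), and the neutrophil gene S100a8 at 13.32 ± 0.03 with rapamycin and 13.25 ± 0.06 with PBS. Itgam was lower in all rapamycin mice than in all PBS mice, and the S100a8 groups overlapped. Of 7 stromal markers, Dcn and Lum lay between 3.45 and 4.36 on all 6 arrays, under the brightness threshold of 4.72, and the other 5, with the collagen genes Col1a1, Col1a2 and Col3a1 among them, lay between 4.57 and 6.71. All values are log2 probe set values, and 1 unit is a doubling. In such a mixture, fewer cells of a type and less RNA per cell cannot be told apart.

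MMPs are zinc-dependent endopeptidases made as inactive proenzymes. Removal of a propeptide exposes the active site, and TIMPs bind that site and block it. Most MMPs are secreted and some are held in the cell membrane, and their substrates include collagens, elastin, chemokines and cytokine precursors. In myeloid cells they fall into a neutrophil group stored in granules (Mmp8, Mmp9 and Mmp25) and genes switched on in macrophages, of which Mmp12 is the best known. Mmp12, Mmp13 and Mmp8 lie with 7 other MMP genes in one cluster on mouse chromosome 9.

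The promoter windows of the 3 cluster members are shown because these neighbours share a locus and differ in their values below. The sequences are RefSeq's for GRCm38.p6, from 250 bases before a gene's start to 50 after it, and Mmp12 has 2 annotated starts 2977 bases apart. They are written 5′ to 3′ on the gene's strand, and capitals mark matches on either strand to any of 4 motifs. The AP-1 motif was searched as TGANTCA. The Ets motif was AGGAAG, which reads CTTCCT from the opposite strand. For the TATA motif the letters were TATAAA, or TTTATA from the opposite strand. The E-box was searched as CACGTG.
Mmp12 upstream start (chr9:7344147-7344446, + strand): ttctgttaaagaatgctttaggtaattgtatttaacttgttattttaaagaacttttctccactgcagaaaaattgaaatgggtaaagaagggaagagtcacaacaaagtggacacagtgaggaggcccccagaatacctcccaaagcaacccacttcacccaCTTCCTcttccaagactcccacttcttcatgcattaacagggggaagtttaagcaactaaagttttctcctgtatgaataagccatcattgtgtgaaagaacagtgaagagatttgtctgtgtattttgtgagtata
Mmp12 downstream start (chr9:7347124-7347423, + strand): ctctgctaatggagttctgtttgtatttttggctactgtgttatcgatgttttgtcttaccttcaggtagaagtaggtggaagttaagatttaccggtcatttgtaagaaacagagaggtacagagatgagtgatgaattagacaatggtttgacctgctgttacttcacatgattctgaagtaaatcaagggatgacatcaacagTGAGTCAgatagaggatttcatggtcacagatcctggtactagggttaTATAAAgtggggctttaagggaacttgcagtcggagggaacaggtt
Mmp13 (chr9:7272264-7272563, + strand): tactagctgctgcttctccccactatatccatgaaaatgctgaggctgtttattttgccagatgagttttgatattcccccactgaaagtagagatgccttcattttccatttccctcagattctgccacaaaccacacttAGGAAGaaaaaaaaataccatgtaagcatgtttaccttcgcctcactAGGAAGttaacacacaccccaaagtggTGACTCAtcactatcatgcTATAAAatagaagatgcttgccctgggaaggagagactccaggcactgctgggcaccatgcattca
Mmp8 (chr9:7558179-7558478, + strand): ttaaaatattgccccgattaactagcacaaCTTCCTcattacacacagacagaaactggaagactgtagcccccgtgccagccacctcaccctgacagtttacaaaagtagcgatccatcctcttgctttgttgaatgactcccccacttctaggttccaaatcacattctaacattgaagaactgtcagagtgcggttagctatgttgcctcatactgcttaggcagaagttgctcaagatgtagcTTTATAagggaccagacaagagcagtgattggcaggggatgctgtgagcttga
No match of one motif overlapped a match of another in these windows. The window of the downstream Mmp12 start held TGAGTCA beginning 44 bases before the start, and that of Mmp13 held TGACTCA beginning 35 bases before it. The windows of Mmp8 and of the upstream Mmp12 start held no match to TGANTCA, a motif that 7.81% of all 32851 promoter windows hold. The TATA motif, in 13.6% of all windows, was in the windows of Mmp13, Mmp8 and the downstream Mmp12 start. It began 16 bases before the annotated start in Mmp13 and 5 bases after it at the downstream Mmp12 start. In Mmp8 the match was TTTATA, beginning 3 bases before the start. Over the 8 members with a window, 7 had a match to the Ets motif in at least 1 window (35.4% of all windows) and 0 had an E-box (7.15%). Mmp9 and Mmp19 are not in the promoter table. A match describes the letters only.

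Mmp12 (probe set 10583056), the macrophage elastase, showed the largest difference of the 10. It had log2 values of 9.08, 8.51 and 9.11 in the 3 rapamycin mice, against 6.77, 6.40 and 6.07 in the 3 PBS mice. The lowest rapamycin mouse stood 1.74 above the highest PBS mouse, so the groups did not overlap. The means were 8.90 ± 0.34 with rapamycin and 6.41 ± 0.35 with PBS (SD, n = 3 each), a log2 difference of 2.48 ± 0.21 (SE), or 5.59-fold, and the third highest of 13965 genes tested. Within a group the mice differed by at most 1.52-fold with rapamycin and 1.62-fold with PBS. The difference lay between 2.31 and 2.68 when any 1 array was left out.

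**Figure D1:**
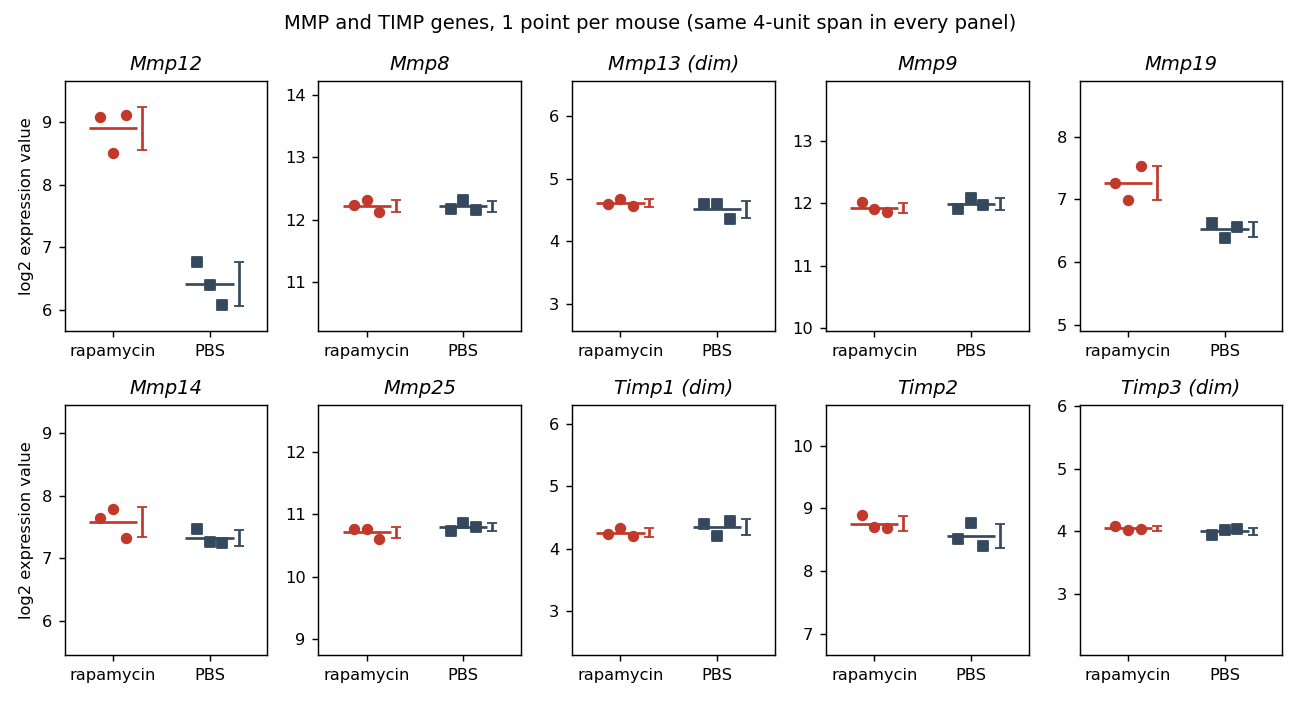
Log2 expression values of the 10 genes in each mouse, rapamycin left and PBS right in every panel, with the group mean (line) and SD (bar, n = 3); every vertical axis spans 4 log2 units. The rapamycin points of Mmp12 and Mmp19 all lie above their PBS points, and the points of the other 8 genes overlap between the groups.

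The other genes of the cluster had smaller differences than Mmp12. Mmp13 (probe set 10583044), a collagenase of bone and cartilage next to Mmp12 in the RefSeq order, had values of 4.59, 4.68 and 4.57 with rapamycin and 4.59, 4.59 and 4.35 with PBS. All 6 were under the brightness threshold, so these values set no level, and the groups overlapped. Mmp8 (probe set 10583100), the neutrophil collagenase at the seventh place of the cluster, had values of 12.24, 12.31 and 12.12 with rapamycin and 12.17, 12.31 and 12.16 with PBS. Its difference was 0.01 ± 0.07 (SE), and the arrays of the 2 groups were interleaved. The 7 other MMP genes of the cluster (Mmp1a, Mmp1b, Mmp3, Mmp7, Mmp10, Mmp20 and Mmp27) had differences between -0.16 and 0.18, with array values between 3.41 and 6.09, and 4 of them were under the brightness threshold. One of these dim genes, Mmp3, had groups that did not overlap, at 4.19 ± 0.11 with rapamycin and 4.01 ± 0.07 with PBS (SD, n = 3 each).

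The other neutrophil proteases lay close together in the groups. Mmp9 (probe set 10478633), gelatinase B of neutrophil granules, on chromosome 2, had values of 12.01, 11.90 and 11.85 with rapamycin and 11.90, 12.08 and 11.97 with PBS. Its difference was -0.06 ± 0.07 (SE), and the groups overlapped. Mmp25 (probe set 10448278), on chromosome 17, encodes a protease anchored in the membrane of leukocytes. It had values of 10.76, 10.76 and 10.60 with rapamycin and 10.73, 10.85 and 10.79 with PBS, a difference of -0.08 ± 0.06, and again the groups overlapped. Of 12 neutrophil markers measured beside these genes, 0 passed limma's test at an adjusted p under 0.05, and 1 had an unadjusted p under 0.05. The summed linear values of these markers ran from 82507 to 87791 with rapamycin and from 85632 to 89874 with PBS. The marker with an unadjusted p under 0.05 was Mpo, at -0.40 ± 0.15 (SE, limma adjusted p 0.125). Ly6g stood at -0.31 ± 0.14 (0.202), Camp at -0.11 ± 0.06 (0.266) and S100a9 at -0.07 ± 0.04 (0.33). Of the 12, S100a9 alone had groups that did not overlap. Elane, Cxcr2, S100a8, Csf3r and Retnlg stood above 0, and the median difference of the 12 was -0.02.

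Mmp19 (probe set 10367400), a secreted protease of basement membrane proteins, on chromosome 10, was the other member whose groups lay apart. It had values of 7.27, 6.99 and 7.54 in rapamycin mice, against 6.62, 6.38 and 6.56 in PBS mice, with a gap of 0.37 between the nearest mice of the groups. The means were 7.27 ± 0.27 with rapamycin and 6.52 ± 0.13 with PBS (SD, n = 3 each), a difference of 0.75 ± 0.13 (SE), or 1.68-fold, at rank 62 from the highest of 13965 genes. It ranged from 0.61 to 0.89 with 1 array left out. The lowest rapamycin value was that of mouse 2 in both Mmp12 and Mmp19, while the lowest PBS value was that of mouse 3 in Mmp12 and of mouse 2 in Mmp19.

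Mmp14 (probe set 10415052), a transmembrane collagenase that also activates the proenzyme of Mmp2, on chromosome 14, had values of 7.65, 7.79 and 7.32 with rapamycin and 7.47, 7.26 and 7.25 with PBS. The groups overlapped through rapamycin mouse 3, and the difference was 0.26 ± 0.12 (SE). With 1 array left out it ranged from 0.16 (without rapamycin replicate 2) to 0.40 (without rapamycin replicate 3). Mmp2, the gelatinase that Mmp14 activates, lay between 5.19 and 5.37 on the 6 arrays, with a difference of -0.07 ± 0.05 (limma adjusted p 0.397).

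Of the inhibitors, Timp2 alone was above the brightness threshold. Timp2 (probe set 10393559), which blocks many MMPs and also serves in the activation of the Mmp2 proenzyme, on chromosome 11, had values of 8.89, 8.70 and 8.68 with rapamycin and 8.51, 8.77 and 8.40 with PBS. PBS mouse 2 lay above rapamycin mice 2 and 3, so the groups overlapped, and the difference was 0.20 ± 0.10 (SE). With 1 array left out it ranged from 0.12 (without PBS replicate 3) to 0.30 (without PBS replicate 2). Timp1 (probe set 10598976), an X-linked inhibitor often induced in inflammation, had values of 4.23, 4.34 and 4.20 with rapamycin and 4.40, 4.21 and 4.44 with PBS. Timp3 (probe set 10365482), which binds the matrix and also blocks ADAM proteases, had values of 4.09, 4.02 and 4.04 with rapamycin and 3.94, 4.02 and 4.04 with PBS. Both genes were under the brightness threshold on all 6 arrays, and their groups overlapped.

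Over the family, 7 of the 10 members were above the brightness threshold and entered the fit. In that fit a gene is called at a Benjamini-Hochberg adjusted p under 0.05 over 13965 genes by limma. Mmp12 and Mmp19 were called, both higher, and the 5 other tested members were not. Of all genes tested, 11.3% were called, 4.42% as higher and 6.92% as lower. The 2 called members were also the 2 whose groups did not overlap, which held for 32.0% of all genes tested, 12.6% higher and 19.4% lower with rapamycin. Since the members were chosen on this contrast, these counts are a description and support nothing. The median log2 difference was 0.20 over the 7 tested members and -0.017 over all genes tested. The count also rested on single arrays, since Mmp19 was not called without rapamycin replicate 1 (0.75), PBS replicate 1 (0.80), PBS replicate 2 (0.68) or PBS replicate 3 (0.77). Without rapamycin replicate 3, Mmp14 was called higher as well (0.40), which made 3 members called.

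**Figure D2:**
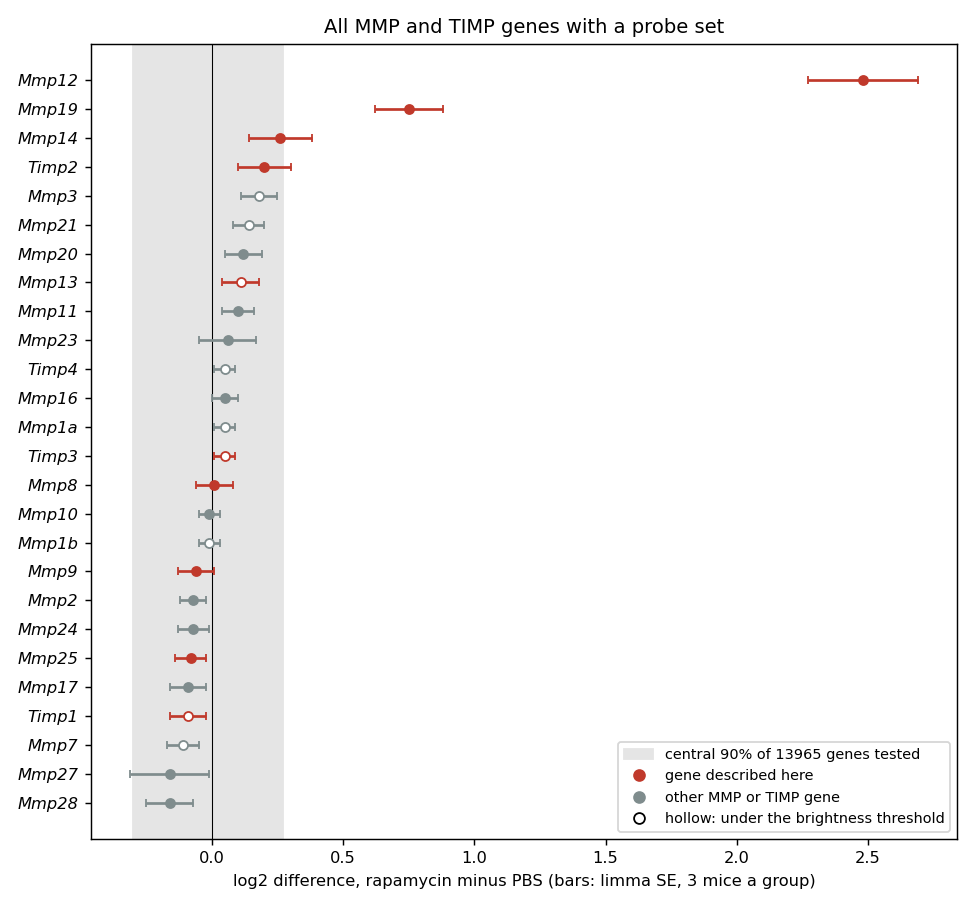
Log2 difference, rapamycin minus PBS, of the 26 MMP and TIMP genes with a probe set (point, with limma's SE as the bar, 3 mice a group); the grey band runs from -0.30 to 0.27, the 5th to the 95th percentile of the genes tested, and hollow points are genes under the brightness threshold. Mmp12 and Mmp19 lie to the right of the band, at 2.48 and 0.75, and Mmp14, at 0.26, lies at its edge.

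None of the remaining MMP genes and inhibitors was called. Of 16 other MMP genes listed, 15 had a probe set, 10 were tested and 0 were called by limma, with 0 at an unadjusted p under 0.05. Their median difference was -0.04. The largest statistics were those of Mmp28, at -0.16 ± 0.09 (SE, limma adjusted p 0.308), Mmp20, a protease of tooth enamel, at 0.12 ± 0.07 (0.324), and Mmp11, a stromelysin, at 0.10 ± 0.06 (0.329). Of 5 other inhibitors measured (Timp4, Reck, A2m, Pzp and Tfpi2), 3 were tested and 0 called, with 0 at an unadjusted p under 0.05, and the membrane-anchored inhibitor Reck stood at -0.04 ± 0.04 (0.635).

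The genes whose values ran most like those of Mmp12 were looked for among the 75 tested genes, members left out, with an SD of at least 0.5 over the 6 arrays. Pearson's correlation with Mmp12 over the 6 arrays was 0.9961 for the complement component C4b, 0.9893 for Plxdc2, a transmembrane protein with a plexin domain, and 0.9849 for the ribosomal protein gene Rps3a1. It was 0.9824 for the metallothionein Mt2 and 0.9818 for 6330407A03Rik. C4b has a close paralog and Rps3a1 has pseudogenes, and signal of those loci may enter their values. The correlations are a description: the 2 groups set most of each, and 29 of the 75 genes exceeded 0.9. On the deviations from the group means, the values were 0.98 for C4b, 0.75 for Plxdc2, 0.86 for Rps3a1, 0.62 for Mt2 and 0.77 for 6330407A03Rik. C4b had log2 values of 9.49, 9.25 and 9.49 with rapamycin and 7.95, 7.88 and 7.68 with PBS. Like Mmp12, it was lowest in mouse 2 of the rapamycin group and in mouse 3 of the PBS group.

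**Figure D3:**
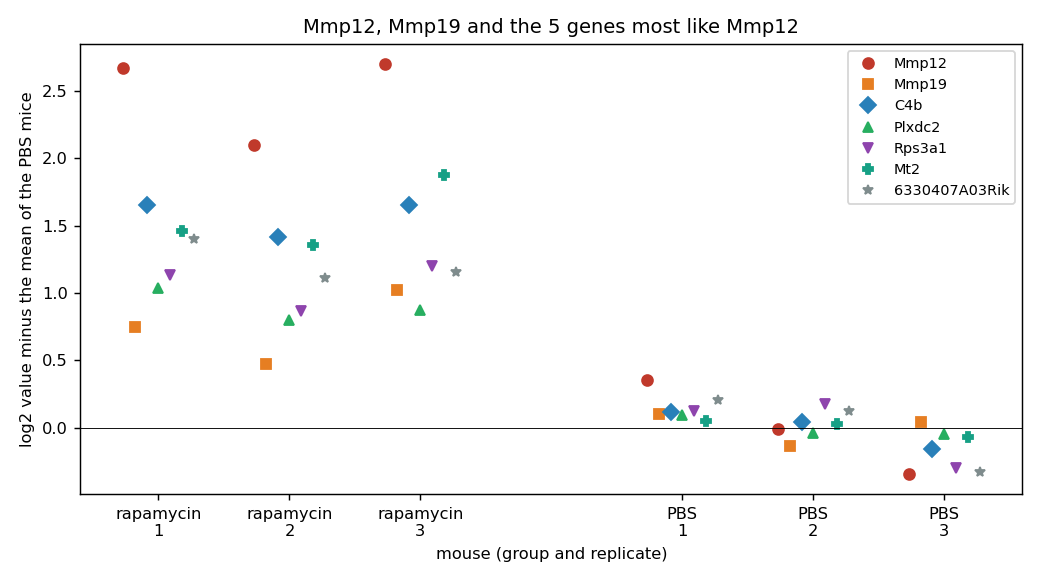
Log2 values of Mmp12, Mmp19 and the 5 genes most like Mmp12 in each mouse, each gene set to 0 at the mean of its PBS mice, with rapamycin mice left and PBS mice right. All 7 genes lie above their PBS values in every rapamycin mouse, and each is lowest among the rapamycin mice in mouse 2.

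Genes that act with the MMPs were read from 8 lists, 119 genes in all, of which 111 were measured and 93 tested. In limma's fit 10 of them rose and 6 fell, 17.2% of those tested against 11.3% of all genes, and their median difference was -0.002. The lists were chosen with earlier results of these data known, so these shares are a description and support nothing. Among activators of MMP proenzymes and the plasminogen system, 2 of 12 tested genes rose and 1 fell, with 9 not called. Serpinb2, an inhibitor of the plasminogen activators, had log2 values of 7.70, 7.93 and 7.91 with rapamycin and 6.73, 7.07 and 6.51 with PBS. It rose by 1.07 ± 0.14 (SE, limma adjusted p 0.00820, and between 0.00471 and 0.0427 in the alternatives). Plaur, the urokinase receptor, rose by 0.39 ± 0.07 (0.0177), with values of 11.06, 10.96 and 10.86 in rapamycin mice against 10.48, 10.66 and 10.57 in PBS mice. Plau, urokinase itself, differed by 0.26 ± 0.08 and did not pass the test (limma adjusted p 0.0911). Serpinf2, the plasmin inhibitor, fell by 0.18 ± 0.04 at values near the brightness threshold (limma adjusted p 0.0401). Serpinb2 kept its call with any 1 array left out, Plaur only without rapamycin replicate 3 (up to 0.0709 in the 5 other fits), and Serpinf2 in none of these fits (up to 0.118).

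Among elastolytic cathepsins and protease inhibitors, 4 of 9 tested genes rose and 0 fell, with 5 not called. They were the cathepsin inhibitors Cst3 (0.44 ± 0.05, SE, limma adjusted p 0.00770) and Cstb (0.49 ± 0.08, 0.0130), the neutrophil elastase inhibitor Slpi (0.48 ± 0.07, 0.0102) and cathepsin L, Ctsl (0.38 ± 0.10, 0.0478). Of these 4, 3 encode inhibitors, but other tested inhibitors of the list lay lower and were not called. Serpinb6a stood at -0.23 ± 0.07 (SE, limma adjusted p 0.0902) and Serpinb1a at -0.10 ± 0.07 (0.361). The protease cathepsin S, Ctss, stood at 0.19 ± 0.07 (0.106) and was not called, though its groups did not overlap. Cst3 and Slpi lost their call without PBS replicate 2 (0.0504 and 0.0615), and Cstb without PBS replicate 1, 2 or 3 (up to 0.0605). Ctsl was not called in any of the 6 fits on 5 arrays (up to 0.148). Among 14 tested ADAM and ADAMTS proteases, Adam9, a membrane protease that sheds surface proteins, rose by 0.28 ± 0.06 (limma adjusted p 0.0302) and 13 did not pass the test. Adam9 kept its call only without PBS replicate 1 (up to 0.110 in the others).

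Among surface partners and clearance receptors, 2 of 13 tested genes fell and 11 did not pass the test. The tetraspanin Cd82 changed by -0.34 ± 0.06 (SE, limma adjusted p 0.0175) and the integrin chain Itgb3 by -0.46 ± 0.10 (0.0304). Cd82 lost its call without rapamycin replicate 1, PBS replicate 2 or PBS replicate 3 (up to 0.0792), and Itgb3 in every such fit except that without PBS replicate 1 (up to 0.113). Lcn2, whose protein binds Mmp9 in neutrophil granules, lay at 13.84 ± 0.02 with rapamycin and 13.84 ± 0.04 with PBS (SD, n = 3 each). Of 12 tested matrix substrates, 0 were called by limma and 1 had an unadjusted p under 0.05, the laminin chain Lamc1 (0.19 ± 0.06, SE, adjusted p 0.0723).

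**Figure D4:**
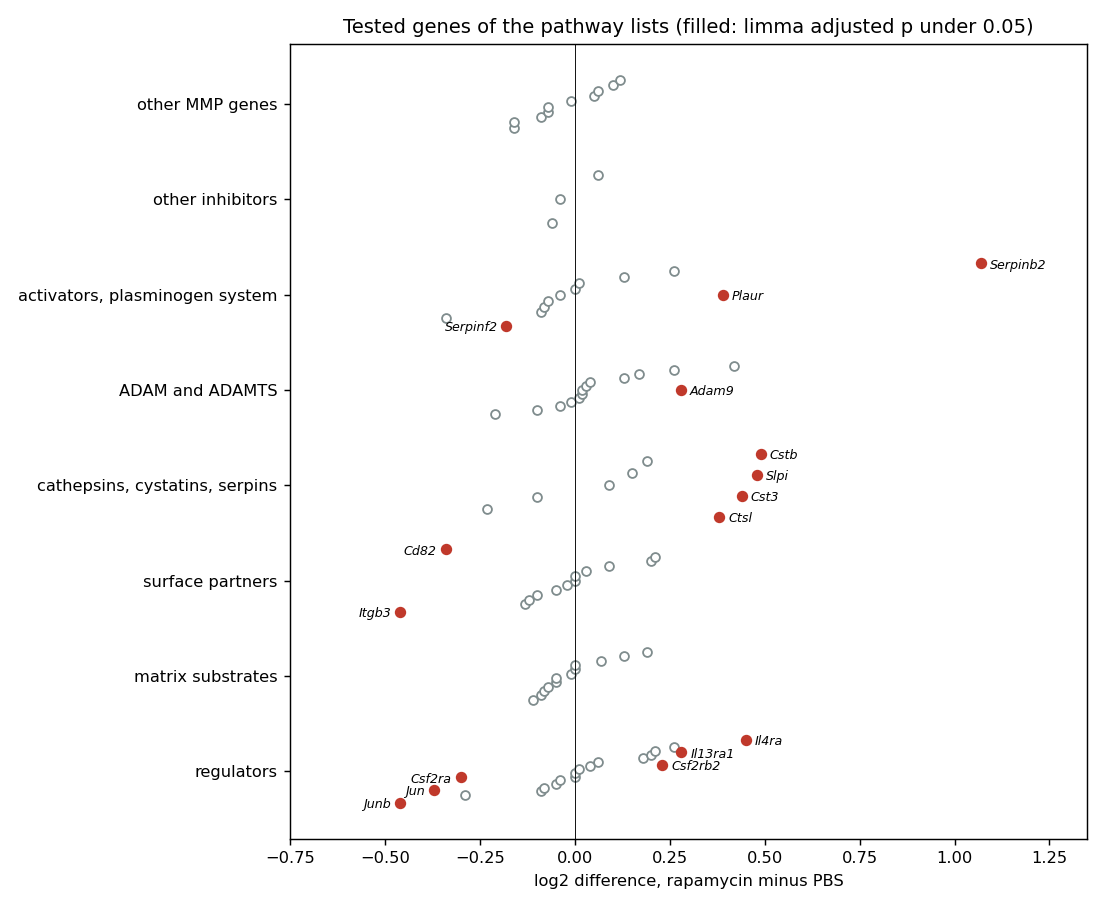
Log2 difference, rapamycin minus PBS, of each tested gene in the 8 lists of genes that act with MMPs; filled points with names passed limma's adjusted p of 0.05 and hollow points did not, and height within a row has no meaning. Serpinb2, at 1.07, lies farthest from 0, and no gene of the other MMPs, the other inhibitors or the matrix substrates is filled.

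Of 20 tested regulators known to act on MMP genes, 3 rose and 3 fell, with 14 not called. Both AP-1 subunits that changed were lower: Junb by -0.46 ± 0.09 (SE, limma adjusted p 0.0246) and Jun by -0.37 ± 0.09 (0.0378). Jun had log2 values of 8.97, 9.20 and 8.91 with rapamycin and 9.32, 9.36 and 9.49 with PBS, with no overlap. The partner Fos stood at 0.18 ± 0.06 and did not pass the test (limma adjusted p 0.109). Ets1 stood at -0.29 ± 0.08 and did not pass either (0.0558), though its groups did not overlap. With the 50th percentile filter, the trended robust variance or array weights, 4 regulators were called lower. With the replicate block or without rapamycin replicate 3, 4 were called higher. The chains of the receptor for IL-4 and IL-13 were higher, Il4ra by 0.45 ± 0.06 (0.00855) and Il13ra1 by 0.28 ± 0.07 (0.0412). Of the GM-CSF receptor chains, Csf2ra stood at -0.30 ± 0.05 (0.0182), and Csf2rb, the beta chain, at 0.26 ± 0.08 and did not pass the test (limma adjusted p 0.0787). Csf2rb2, a chain of the mouse IL-3 receptor that is close in sequence to Csf2rb, stood at 0.23 ± 0.05 (0.0319). With arrays left out one at a time, Il4ra was lost only without PBS replicate 2 (0.0525), and Junb and Csf2ra were called only without rapamycin replicate 2 or 3. Jun was called only without rapamycin replicate 2, and Il13ra1 and Csf2rb2 only without rapamycin replicate 3 (up to 0.140 in the other fits).

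Of the 12 lists of cell type markers, the summed linear values lay higher without overlap in rapamycin mice for 5 and lower for 3, and overlapped for 4. With the markers that limma called left out, a choice made after seeing the data, they lay higher for 1 and lower for 2, and overlapped for 9. The sums of 13 macrophage markers were 7963, 7855 and 8021 in rapamycin mice 1 to 3, against 7000, 6343 and 5135 in PBS mice 1 to 3. Without Cd68, a glycoprotein of macrophage lysosomes, the sums were 4900, 4977 and 5133 with rapamycin and 5142, 4644 and 3694 with PBS. The groups then overlapped through PBS mouse 1. Called markers were left out because they differed on this contrast. An overlap without them does not show that the other markers of a list were unchanged. Of the 12 macrophage markers tested, Cd68 alone passed limma's test (0.83 ± 0.09, SE, adjusted p 0.00655, and 0.0504 without PBS replicate 2). Its groups lay apart, as did those of Timd4 (0.71 ± 0.19, SE, limma adjusted p 0.0588), Mertk (0.40 ± 0.13, 0.0913) and C1qc (0.47 ± 0.18, 0.147). In all, 4 tested markers lay higher without overlap and 0 lower, and 4 had an unadjusted p under 0.05. Over all genes tested, 12.6% lay higher without overlap and 19.4% lower. The other way went Vcam1, at -0.29 ± 0.13 (SE, limma adjusted p 0.205), and Marco, at -0.02 ± 0.09 (0.919), both with overlap. The median difference of the 12 was 0.17. With the 50th percentile filter, repeated quantile normalization, aligned medians, the trended robust variance or the replicate block, 2 macrophage markers were called higher. The same held without rapamycin replicate 1 or PBS replicate 1, and without PBS replicate 2 the number was 0. The F4/80 gene Adgre1 lay at 9.31 ± 0.15 with rapamycin and 9.09 ± 0.23 with PBS (SD, n = 3 each), with overlap.

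The eosinophil, osteoclast and dendritic cell sums also overlapped without their 1 called marker. The sum of 6 eosinophil markers ran from 1017 to 1452 with rapamycin and from 374 to 512 with PBS, and without the lipoxygenase gene Alox15 (2.47 ± 0.27, SE, limma adjusted p 0.00655) from 224 to 239 with rapamycin and from 230 to 232 with PBS. The defining eosinophil marker Siglecf stood at 0.03 ± 0.04. The sum of 7 osteoclast markers ran from 638 to 813 with rapamycin and from 463 to 631 with PBS. Without Ocstamp, a gene of osteoclast fusion (1.28 ± 0.19, SE, limma adjusted p 0.0107, and up to 0.0660 without PBS replicate 2 or 3), it ran from 338 to 358 with rapamycin and from 325 to 443 with PBS. The sum of 8 dendritic cell markers ran from 561 to 665 with rapamycin and from 416 to 509 with PBS. Without the CD11c gene Itgax (0.82 ± 0.18, SE, limma adjusted p 0.0315) it ran from 247 to 254 with rapamycin and from 241 to 253 with PBS. Itgax was the 1 called marker of the 6 tested and was called without rapamycin replicate 3 or PBS replicate 1 and in no other fit on 5 arrays (up to 0.125). Of these 6, 2 lay higher without overlap and 1 lower, beside 12.6% and 19.4% of all genes tested. The other higher marker was Clec9a (0.54 ± 0.15, SE, limma adjusted p 0.0631), whose PBS mean of 4.53 was under the brightness threshold. With aligned medians, array weights or the replicate block, and without rapamycin replicate 3, 2 dendritic cell markers were called higher. Monocyte sums overlapped, from 5412 to 6013 with rapamycin and from 5266 to 5930 with PBS. By single markers, 4 of the 8 tested lay lower without overlap and 1 higher, and their median difference was -0.18. Of 8 monocyte markers tested, Ms4a6c was higher (0.38 ± 0.08, SE, limma adjusted p 0.0336), and Ccr2, the receptor of monocyte chemokines (-0.34 ± 0.08, 0.0409), Ace (-0.57 ± 0.13, 0.0327) and Cd300e (-0.49 ± 0.11, 0.0370) were lower. Without rapamycin replicate 1, PBS replicate 2 or PBS replicate 3 none of these 4 was called, and Ccr2 was called in no fit on 5 arrays (up to 0.140). F13a1, at -0.50 ± 0.14 (SE, limma adjusted p 0.0638), did not pass the test, though its groups did not overlap.

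The lists of other blood cells lay apart as well. The sum of 4 erythroid markers ran from 191 to 219 with rapamycin and from 155 to 160 with PBS, and the red cell anion exchanger Slc4a1 was the 1 called (0.64 ± 0.09, SE, limma adjusted p 0.00876, and 0.0536 without PBS replicate 2). Without Slc4a1 the sum ran from 96 to 106 with rapamycin and from 85 to 93 with PBS. The sum of 5 T cell markers ran from 178 to 205 with rapamycin and from 221 to 237 with PBS, and 2 of 4 tested were lower, Cd3g (-0.39 ± 0.09, SE, limma adjusted p 0.0335) and Cd8a (-0.27 ± 0.06, 0.0316). Among fits on 5 arrays, Cd3g was called only without PBS replicate 1 and Cd8a in none (both up to 0.111). Without Cd3g and Cd8a the sum ran from 110 to 134 with rapamycin and from 136 to 149 with PBS. The sum of 4 B cell markers ran from 119 to 128 with rapamycin and from 135 to 144 with PBS, and the 1 tested, Cd79b, was lower (-0.32 ± 0.06, SE, limma adjusted p 0.0191). Cd79b lost its call without rapamycin replicate 1 or any 1 PBS array (up to 0.0812). The 3 other B cell markers were under the brightness threshold. Without Cd79b the sum ran from 55 to 59 with rapamycin and from 53 to 59 with PBS, so the groups overlapped. The sum of 5 basophil and mast cell markers ran from 190 to 260 with rapamycin and from 278 to 324 with PBS. The 3 tested, Mcpt8 (-0.70 ± 0.20, SE, limma adjusted p 0.0660), Cpa3 (-0.56 ± 0.16, 0.0664) and Prss34 (-0.43 ± 0.12, 0.0684), all proteases of these cells, did not pass the test, though each had groups that did not overlap and an unadjusted p under 0.05. Without rapamycin replicate 3 all 3 were called lower, at -0.94 for Mcpt8, -0.76 for Cpa3 and -0.56 for Prss34. The sums of 7 stromal markers ran from 309 to 334 with rapamycin and from 318 to 342 with PBS, and those of 6 endothelial markers from 255 to 274 with rapamycin and from 248 to 275 with PBS. Of 5 stromal and 5 endothelial markers tested, 0 were called by limma, with 0 at an unadjusted p under 0.05. The part of these cell types in the values of Mmp12 and Mmp19 was not tested.

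**Figure D5:**
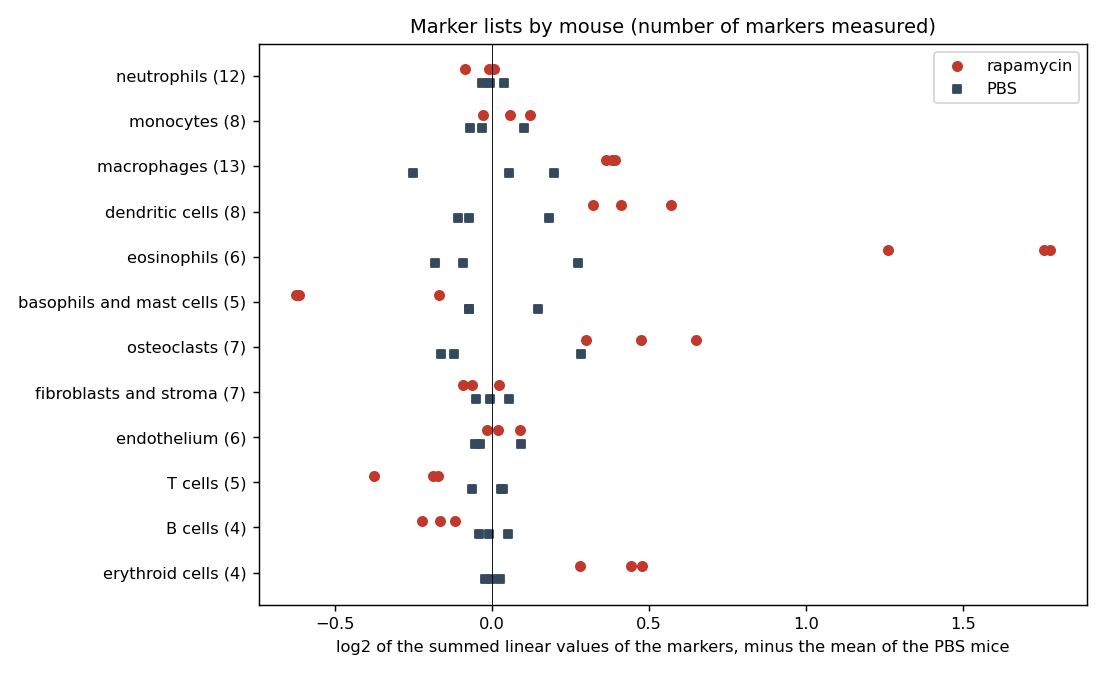
Summed linear values of each marker list in each mouse, as log2 and set to 0 at the mean of the PBS mice (circles, rapamycin; squares, PBS; number of markers measured in brackets). The sums of macrophage, dendritic cell, eosinophil, osteoclast and erythroid markers lie higher in all rapamycin mice than in all PBS mice, those of basophils and mast cells, T cells and B cells lie lower, and the neutrophil, monocyte, stromal and endothelial sums overlap.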

How the data were processed

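Total RNA of CD11b-enriched spleen cells from 6 mice was biotin-labelled and hybridised, 1 array a mouse, according to the labels' protocols. The files hold the authors' log2 values for each probe set, which Affymetrix Expression Console produced with RMA per the submitters' processing notes. Versions and genome build are not given in the sources used here, and no position of a probe set is printed. RMA equalises the arrays' distributions, which would remove a change shared by most genes. The values ran from 2.71 to 14.22, with array medians between 5.42 and 5.46. The labels call the mice biological replicates. With 3 arrays a group, their number limits the precision.

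Of 35556 probe sets, 21789 had 1 symbol in GEO's platform annotation, 1621 had several and 12146 were not listed. The probe set with the highest mean stood for each of 19938 genes, and 5973 genes under the 30th percentile (log2 4.72) were set aside. Groups were compared over 13965 genes with limma 3.58.1 in R 4.3.3 (lmFit and eBayes, 2-sided, Benjamini-Hochberg), tested on simulated data. Values of dim members come from a fit of all genes. Alternatives were no filter or the 50th percentile, quantile normalization again, aligned medians, averaging the probe sets of each gene, a trended robust variance, array weights, a replicate block and leaving out each array. Figures were drawn with matplotlib 3.10.9.

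The members and lists were chosen with earlier results of these data known. Genes were named by a rule: the 10 members, up to 4 genes of a list by the size of the statistic, the called genes of a list with 5 or fewer, and the 5 genes most like Mmp12. Not all genes it allows are named where they were not called. Jun, Il13ra1, Fos, Csf2rb, Lcn2, Itgam, S100a8, Dcn, Lum, Adgre1, Ctss, Serpinb1a, Serpinb6a, Mmp3 and the other MMP genes of the cluster were named after their values were seen. So were Ets1, F13a1, Vcam1, Marco, Elane, Cxcr2, Csf3r and Retnlg. Same-numbered mice did not deviate together in all 3 pairs (correlations 0.263, 0.00995 and 0.0456), and the labels do not say that a number is shared. Mmp15 has no probe set with a single symbol and was not analysed here.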

Additional observations from a re-analysis of the deposited data

How the results depend on the processing

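The Mmp12 difference lay between 2.31 and 2.68 with 1 array left out and between 2.48 and 2.51 in the 8 other settings. Counts of calls rested on single arrays: with 1 array left out, 113 to 1336 genes were called in place of 1584, the lowest without PBS replicate 2, and 1 to 3 members in place of 2. Fits on 5 arrays also have fewer samples. With the replicate block the counts were 1691 genes and 2 members, and Mmp12 stood at 2.48; the numbers are no known pairing. The other settings gave 1261 to 1837 genes and 2 members each. The 9 other members' differences moved by less than 1 SD between mice in all settings in which they were fitted. Of 28 called list and marker genes, 0 changed direction. They lost their call 103 times in the fits with an array left out and 12 times in the other settings. Those 12 were Cd8a, Csf2rb2, Ctsl and Serpinf2 with the replicate block, Ccr2, Cd300e, Ctsl, Il13ra1 and Jun with no filter, Ccr2 and Serpinf2 with aligned medians, and Ctsl with array weights. Among 17 of the genes named without a call, Lcn2 lay on the other side of 0 with repeated quantile normalization (0.04), aligned medians (0.02) and in 3 of the 6 fits on 5 arrays (-0.02 to 0.01 over the 6). Plau and Csf2rb were called with the replicate block (0.26 each), Lamc1 with repeated quantile normalization (0.22), Fos without rapamycin replicate 3 (0.24), Mcpt8, Cpa3 and Prss34 without that array and with array weights, and Mcpt8 also with the replicate block and the stricter filter. Mmp13, Timp1 and Timp3 were under the brightness threshold, so their differences have little meaning.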
